A study of Rattus norvegicus with 89 samples.

Results

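The lysosome is the acidic compartment in which a cell breaks down proteins, sugar chains and lipids, and 41 genes for its enzymes, membrane proteins, proton pump subunits and regulators were followed in rat kidney. They were chosen by gene symbol: 10 proteases, 12 glycosidases and sulfatases, 7 proteins that handle lipids, 7 membrane proteins, 3 proton pump subunits and 2 regulators. Of the 41 members, 39 had a named probe set, the short group of array features that reads 1 transcript, and all 39 passed the filter on low values among 11415 genes tested. The sulfatase Sgsh and the cholesterol transporter Npc1 were not analysed here. The kidneys came from 89 Sprague-Dawley Crl:CD(SD) rats, 44 males and 45 females, aged 7 to 8 weeks when the experiment began, all housed singly after 6 days of acclimation. Rats received Gentamycin or Tobramycin (both aminoglycoside antibiotics), Cisplatin or Doxorubicin (both cancer drugs), Cadmium (a toxic metal), ValproicAcid (an antiepileptic drug) or Saline, each once a day for 1 or 5 days. A further group was naive, that is, untreated. These made 15 groups: 7 rats with saline at day 1, 5 with saline at day 5, 5 with doxorubicin at day 5, and 6 in each of the other 12. The labels give no doses. Each array held the RNA of the apical parts of both kidneys of 1 rat, so tubule, vessel and blood cells were measured together, and fewer cells of a type and less RNA per cell cannot be told apart.

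Most lysosomal hydrolases are made as precursors, tagged with mannose 6-phosphate in the Golgi and delivered to an acidic compartment that a proton pump, the vacuolar ATPase, maintains. In the kidney the proximal tubule is rich in lysosomes, because its cells take up filtered proteins by endocytosis and degrade them there. Aminoglycosides enter the same cells by that route and collect in lysosomes, where they disturb the breakdown of phospholipids. The transcription factor TFEB, itself among the members, binds an E-box called the CLEAR element near the starts of many lysosomal genes.

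Forms of that element were searched for in the members' promoters because it is the regulatory sequence the members are best known to share. RefSeq promoter windows of the GRCr8 assembly, from 250 bases before to 50 bases after a gene's start, were found for 33 of the 41 members. Windows for Arsa, Arsb, Asah1, Atp6v1h, Ctsb, Hexa, Ppt1 and Psap were not used here. The palindrome TCACGTGA, which reads alike on both strands, lay in the windows of 6 of the 33 members (18.2%) and in 260 of 33469 windows of all genes (0.777%). Those 6 members are printed here on the strand of the gene, with the palindrome in capitals and 10 bases to each side.
Atp6v0d1, chr19:50357284-50357311, minus strand, first capital 53 bases before the start: cccattgtggTCACGTGAgatgcagtgc
Cln3, chr1:190597951-190597978, minus strand, 39 bases before: acgggtactgTCACGTGAtccccaacct
Ctsd, chr1:206968815-206968842, minus strand, 11 bases before: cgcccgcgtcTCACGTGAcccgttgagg
Galc, chr6:123245563-123245590, minus strand, 21 bases before: ggtgccacagTCACGTGAcccgcacaat
Lamp1, chr16:83075112-83075139, minus strand, 66 bases before: gaccctcggcTCACGTGAccggcgggcg
Lamp1, chr16:83075085-83075112, minus strand, 39 bases before: gcggcactgtTCACGTGAcaggcgctgc
Mcoln1, chr12:6358251-6358278, plus strand, 3 bases after the start: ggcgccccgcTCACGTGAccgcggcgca
Lamp1 held the palindrome 2 times within these 300 bases. The longest form searched for was the palindrome with a G directly before it and a C directly after it. That form lay in the window of only 1 of the 33 members, Galc (3.03%), against 0.233% of all windows. The 6-letter core CACGTG, which the palindrome contains, lay in the windows of 10 members (30.3%), the other 4 being Cd63, Gaa, Glb1 and Sgsh, against 6.42% of all windows. The starts are those of the promoter table, and for Lamp1, Cln3, Galc and Mcoln1 they lie inside the gene's full RefSeq span, so they are not the outermost start of the gene. These matches describe letters in the windows and were not tested as binding sites.

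The arrays gave a MAS5 signal, a linear brightness per probe set, which differed in overall level by up to 3.84 times between arrays before scaling. All 12 proximal tubule markers checked, among them the endocytic receptors Lrp2 and Cubn, stood above the limit on low values in 89 of 89 rats, so the labelled tissue carried the segment of interest. For 5 arrays the treatment text was absent or differed from the title, which set the group. In 4 female rats (7F160, 7F155, 1F106 and 5F140) the Gapdh 3′ probe set exceeded the 5′ one by more than 1 on the log2 scale, a sign of shortened RNA or incomplete copying. Precision is limited by the number of rats, and p-values weigh a difference against the spread between rats.

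No member passed the test in any of the 12 comparisons of a compound with saline of the same day (limma with Benjamini-Hochberg adjustment over all genes, limit 0.05). At day 1, genes overall passed in 0% of cases with gentamycin, 0.0613% with tobramycin, 0% with cisplatin, 0.0263% with cadmium, 0.0438% with doxorubicin and 0.0788% with valproic acid. At day 5, the shares were 0% with gentamycin, 0% with tobramycin, 0.00876% with cisplatin, 0% with cadmium, 0.114% with doxorubicin and 0% with valproic acid. A count of 0 among 39 members is thus near the share in the whole table. Before adjustment, at p under 0.05, day 1 gave 1 member with gentamycin (4.61% of all genes), 2 with tobramycin (7.4%), 6 with cisplatin (5.61%), 3 with cadmium (5.79%), 1 with doxorubicin (9.62%) and 0 with valproic acid (9.19%). Day 5 gave 1 with gentamycin (6.25%), 2 with tobramycin (4.98%), 1 with cisplatin (8.06%), 1 with cadmium (3.5%), 2 with doxorubicin (8.47%) and 1 with valproic acid (6.62%). All comparisons of a day share the same saline rats. A member's 95% interval, not adjusted over genes, had a median half-width of 0.18 on the log2 scale for tobramycin at day 1. For doxorubicin at day 5 it was 0.30. Smaller differences could not be seen in single genes, and larger ones also missed the adjusted limit. Examples are Ctsd at 0.39 with tobramycin at day 1 and Ctsa at -0.53 with doxorubicin at day 5.

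**Figure D1:**
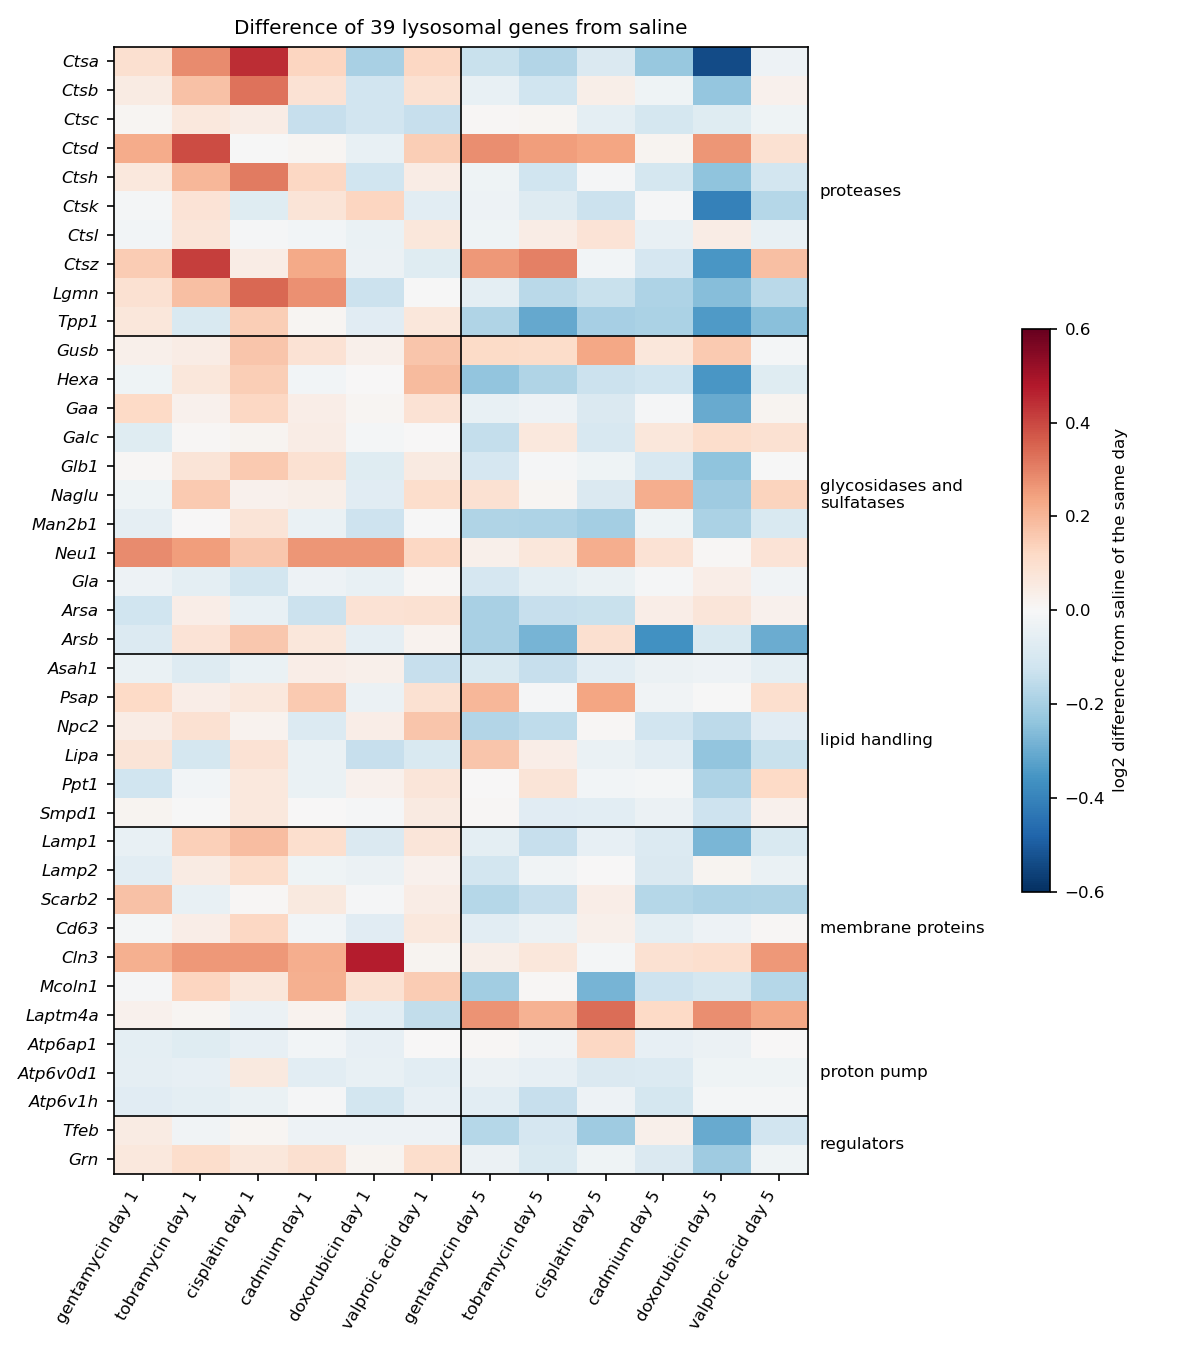
Difference of 39 lysosomal genes (rows, grouped by role) from saline of the same day in 12 compound groups (columns); colour gives the log2 difference, red higher and blue lower than saline. Doxorubicin at day 5 is mostly blue, with 10 of 39 members higher, and cisplatin at day 1 mostly red, with 30 of 39 higher, while no square stands for a difference that passed the test.

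The median difference of the 39 members stayed near 0. At day 1 it was 0.01 with gentamycin, 0.05 with tobramycin, 0.07 with cisplatin, 0.04 with cadmium, -0.04 with doxorubicin and 0.05 with valproic acid on the log2 scale, while the median over all genes lay between -0.01 and 0.02. At day 5 it was -0.05 with gentamycin, -0.05 with tobramycin, -0.03 with cisplatin, -0.05 with cadmium, -0.12 with doxorubicin and -0.03 with valproic acid, beside all-gene medians between -0.002 and 0.005. Of the 39 members, 28 were higher than saline with tobramycin at day 1, 30 with cisplatin, 24 with cadmium, 28 with valproic acid, 21 with gentamycin and 12 with doxorubicin. Between 9 and 15 were higher in the 6 groups of day 5. The counts of day 5 turned on 1 saline rat, 1F106: without it 20 to 23 members were higher with 5 of the compounds and their medians turned to between 0.005 and 0.05, while doxorubicin kept 10 higher and a median of -0.11. The saline rats of day 1 themselves lay below naive rats in 32 of 39 members and the saline rats of day 5 above those of day 1 in 31 of 39, and these saline rats are the reference of the medians above. Without scaling of the arrays all genes moved together, for example to a median of -0.30 with tobramycin at day 1, where the members' median was -0.26; relative to all genes the members' median was then between -0.13 and 0.06 in the 12 comparisons.

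Among the proteases, Ctsd and Ctsz had their highest group means with tobramycin, Ctsd at day 1 and Ctsz at day 5. Ctsc, described below, was also highest with tobramycin at day 1 in the probe set used, at a log2 difference of 0.06 from saline. Its second probe set, of like brightness (median 1046 against 1039), gave -0.11. The 2 correlated at only r = 0.17 over all rats. Ctsd encodes cathepsin D, the main aspartic protease of the lysosome, on chr1:206956945-206968821 of GRCr8. Its scaled signal ran from 2081 through a median of 2386 to 3029 in the 6 tobramycin rats of day 1, and from 1602 through 1836 to 2199 in the 7 saline rats. Their means were 2434 ± 330.2 (SD, n = 6) and 1859 ± 182.1 (SD, n = 7). Of the tobramycin rats 1 lay below the highest saline rat, and the other 5 lay above every saline rat. The difference was 0.39 ± 0.08 (SE) on the log2 scale and pointed up in each of the 6 treated rats, but its adjusted p of 0.0662 (limma) missed the limit. It passed in 1 of 13 fits with a rat left out (without 4M28, adjusted p = 0.0319) and in 1 of 14 other settings (saline and naive rats pooled as control, 0.00249, where 0.464% of all genes passed). Over those 14 settings the difference ran from 0.07 without array scaling to 0.41, with adjusted p up to 0.824.

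Ctsz encodes cathepsin Z, a carboxypeptidase of the cysteine cathepsins, on chr3:183643077-183653847. In the tobramycin rats of day 1 its signal ran from 87.6 through 95.9 to 128.9, and in the saline rats from 66.1 through 73.4 to 85.8. The groups did not overlap, which among all genes was so for 0.263%. Means were 102.99 ± 15.9 (SD, n = 6) and 73.6 ± 6.63 (SD, n = 7), a difference of 0.41 ± 0.08 (SE) on the log2 scale with an adjusted p of 0.0783 (limma). It too passed in 1 of 13 fits with a rat left out (without 4M28, 0.0460) and in 1 of 14 settings (pooled controls, 0.0459). Over the settings the difference ran from 0.13 without array scaling to 0.49, and with naive rats as control it was 0.25 (adjusted p = 0.698). In the same rats 12 of 13 tested macrophage markers were higher than saline (median log2 difference 0.27), with summed signals of 5742 to 8507 against 4900 to 7108. Tubular injury markers were higher in 7 of 8 (median 0.35), with sums of 3339 to 9518 against 4023 to 8408, and all 12 proximal tubule markers were higher by a median of 0.09. The macrophage markers Cd163 and Itgam were not among the genes tested. With a proximal tubule marker score as a covariate, 1 of the 14 settings, neither Ctsd nor Ctsz passed. Neither passed without the score, so that setting cannot show the part of the proximal tubule markers. The part of the macrophage and tubular injury markers in the Ctsd and Ctsz differences from saline was not tested.

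The other 3 aminoglycoside groups gave Ctsd values between saline and tobramycin at day 1. Gentamycin at day 1 ran from 1714 through 2180 to 2477 (mean 2158 ± 273, n = 6), a log2 difference of 0.22 ± 0.07 (SE) from saline with an adjusted p of 0.769 (limma). At day 5 the gentamycin rats averaged 2202 ± 290.4 (SD, n = 6). The tobramycin rats averaged 2186 ± 305.0 (SD, n = 6) and the saline rats 1818 ± 165 (SD, n = 5). These log2 differences of 0.28 ± 0.10 and 0.25 ± 0.11 (SE) did not pass either (adjusted p 0.762 and 0.936, limma). Group differences of like size were also found with cisplatin and doxorubicin, each with 1 rat far above the others. At day 5 the Ctsd difference was 0.24 with cisplatin, 0.27 with doxorubicin, 0.01 with cadmium and 0.09 with valproic acid. In the cisplatin and doxorubicin groups 1 rat each, 3M24 (3500) and 6M49 (3728), read far above the rest. Counted by rat, 14 of 24 aminoglycoside rats exceeded the highest of the 18 control rats (2199) in Ctsd, and 22 of 24 exceeded the control median of 1839. For Ctsz the same counts were 8 and 20 of 24, and for the remaining 37 members at most 4 rats exceeded all controls. These counts were made for all members after the values had been seen and carry no test.

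Ctsz varied more between rats at day 5. Gentamycin rats ran from 65.8 through 93.7 to 165 (mean 99.8 ± 36.3, n = 6) and tobramycin rats from 50.4 through 103.3 to 144.8 (mean 104.6 ± 34.3, n = 6). The 5 saline rats read 64.1, 70.6, 74.3, 85.0 and 87.1 (mean 76.2 ± 9.72). Both aminoglycoside groups overlapped with saline, with log2 differences of 0.26 ± 0.18 and 0.30 ± 0.18 (SE) and adjusted p of 0.767 and 0.936 (limma).

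Gentamycin and Tobramycin, which share the aminoglycoside core and differ in the sugars attached to it, were set side by side at each day, with their doses not given. No member passed in either comparison, where 0% of all genes passed at day 1 and 0% at day 5, and 3 and 1 members had an unadjusted p under 0.05 (7.24% and 5.81% of all genes). At day 1 the log2 difference, gentamycin minus tobramycin, was -0.17 for Ctsd with a 95% interval from -0.32 to -0.02. For Ctsz it was -0.26, with an interval from -0.44 to -0.08. Adjusted p were 0.634 and 0.581 (limma). At day 5 the interval for Ctsd ran from -0.21 to 0.23 and that for Ctsz from -0.49 to 0.38, so a difference of that size in either direction is not excluded. Whether an effect differed between day 5 and day 1 was tested for each compound, and no member passed in any of the 6 tests; of all genes, 0.0613% did so with doxorubicin and 0% with each other compound. Members with an unadjusted p under 0.05 numbered 2 with cisplatin (8.12% of all genes), 3 with cadmium (2.62%) and 0 with gentamycin (1.97%), tobramycin (4.35%), doxorubicin (5.94%) and valproic acid (5.25%).

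**Figure D2:**
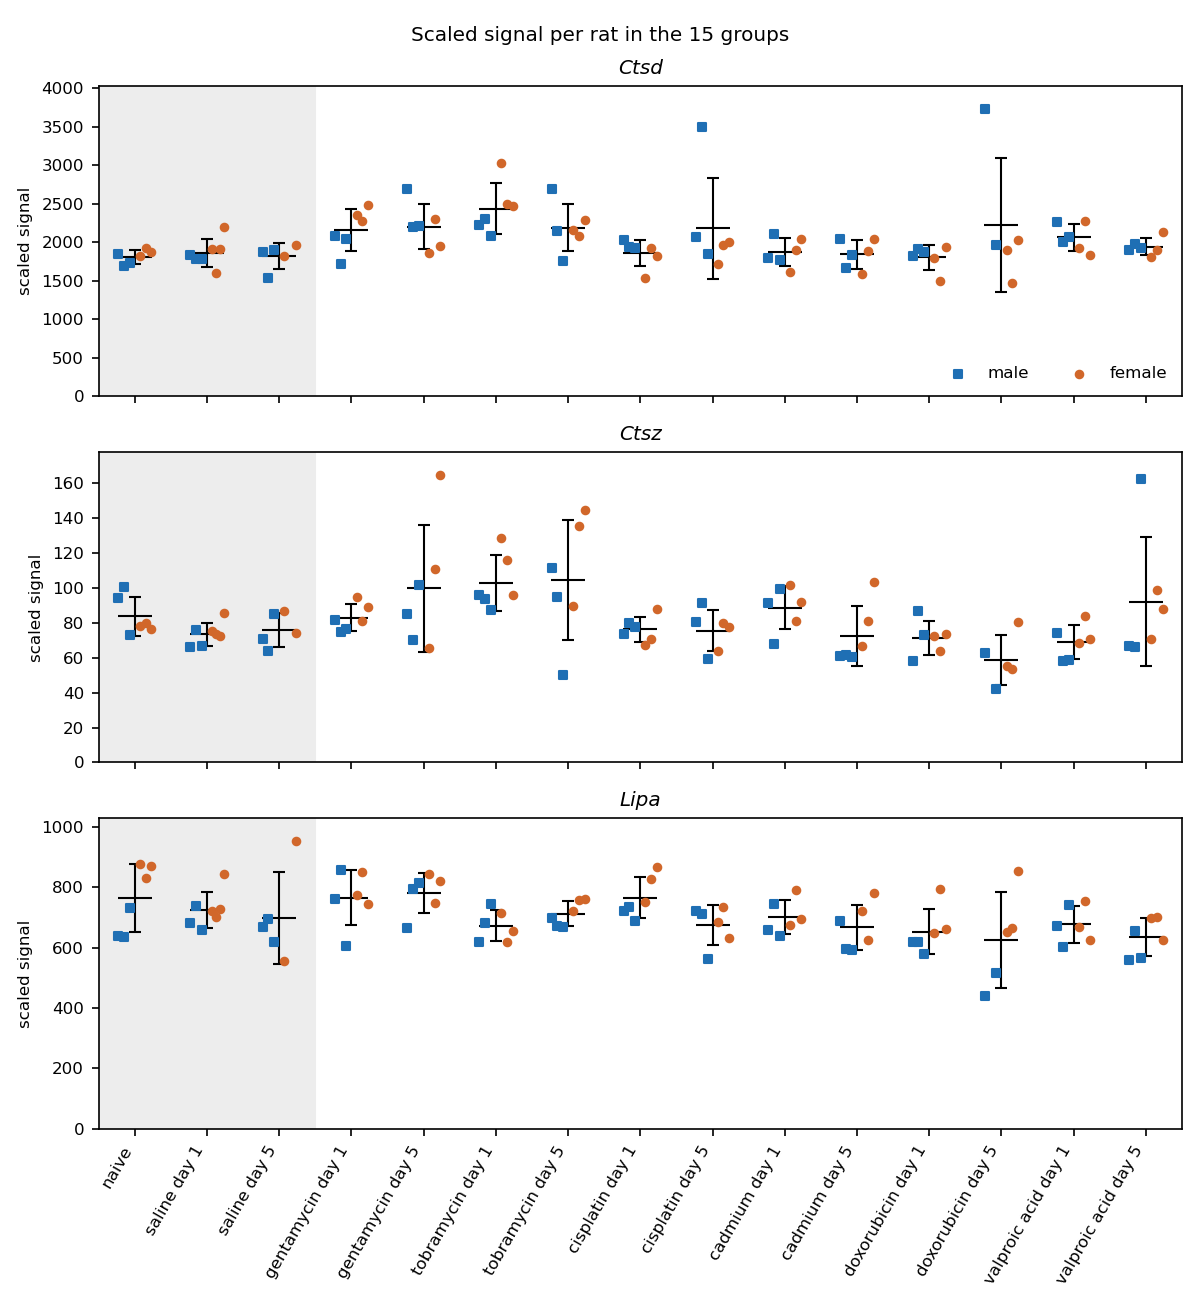
Scaled signal per rat of Ctsd, Ctsz and Lipa in the 15 groups; squares are males, circles females, black bars the mean and SD of a group, and grey shading marks the control groups. Ctsd lies above the control median of 1839 in 22 of 24 aminoglycoside rats, and 1 male each of cisplatin day 5 (3500) and doxorubicin day 5 (3728) stands far above its group.

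Further members with the same sign in every treated rat were few in the aminoglycoside groups. With gentamycin at day 1, Neu1, the sialidase that trims sialic acid from sugar chains, had a mean of 351 ± 55.9 (SD, n = 6) against 295 ± 77.5 (n = 7) in saline, a log2 difference of 0.28 ± 0.15 (SE). With tobramycin at day 1, the members beside Ctsz and Ctsd were Neu1 at 0.25 ± 0.15 (SE), Lamp1, a heavily glycosylated protein of the lysosomal membrane, at 0.14 ± 0.07, and Grn, the progranulin precursor, at 0.11 ± 0.06. Neu1 had its highest mean of the 15 groups in naive rats, however (363 ± 107, SD, n = 6). Its second probe set differed from saline by 0.18 with gentamycin and 0.09 with tobramycin at day 1. Ctsz was also higher in every rat with gentamycin at day 1 (83.01 ± 7.75, SD, n = 6; log2 difference 0.15 ± 0.07, SE), but against naive rats that difference was -0.01. With gentamycin at day 5, the cholesteryl ester hydrolase Lipa differed by 0.17 ± 0.12 (SE), the calcium channel Mcoln1 by -0.21 ± 0.11, the galactocerebrosidase Galc by -0.14 ± 0.09 and the alpha-galactosidase Gla by -0.10 ± 0.09. With tobramycin at day 5 it was only the sulfatase Arsb, which had 459 ± 79.3 (SD, n = 6) against 568.2 ± 102.8 (n = 5), a log2 difference of -0.28 ± 0.13 (SE). None of these passed, with adjusted p of 0.687 or more (limma), and without saline rat 1F106 Lipa was at 0.30 and Gla at -0.05. Tfeb, the regulator, differed from saline by -0.17 to 0.05 on the log2 scale in the 4 aminoglycoside comparisons. The 6 members with the palindrome printed above did not move as 1 group with tobramycin at day 1: Ctsd was at 0.39, Cln3 at 0.26, Lamp1 at 0.14, Mcoln1 at 0.13, Galc at 0.01 and Atp6v0d1 at -0.05.

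Cisplatin at day 1 had the most members at an unadjusted p under 0.05, and 4 of the 6 were proteases. Ctsa, or cathepsin A, the carboxypeptidase that also protects Glb1 and Neu1, had a mean of 3876 ± 679 (SD, n = 6) against 2906 ± 877 (n = 7) with saline, a log2 difference of 0.44 ± 0.19 (SE). Ctsb, the cysteine protease cathepsin B, had 4474 ± 520.5 (SD) against 3609.6 ± 625.3 and differed by 0.33 ± 0.11 (SE). Gusb, beta-glucuronidase, differed by 0.17 ± 0.08 (SE), and all 3 were higher in every treated rat. The other 3 were Lgmn, the asparaginyl endopeptidase legumain, at 0.34, the aminopeptidase Ctsh at 0.31 and Lamp1 at 0.19. Adjusted p were 0.859 for each (limma). All 12 proximal tubule markers were also higher in these rats (median 0.14), with summed signals of 41941 to 61695 against 38815 to 49719 in saline. A fit with a proximal tubule marker score as a covariate also called no member. None was called without the score either, so that fit cannot show the part of these markers in the differences above, which was not tested further. Naive rats averaged 3838 in Ctsa, 4395 in Ctsb, 5394 in Ctsh and 3520 in Lgmn. The cisplatin means of day 1, at 3876, 4474, 5552 and 3537, thus lay near those of naive rats in these proteases. At day 5 with cisplatin, Psap, the precursor of the saposins that activate lipid hydrolases, differed by 0.24 ± 0.11 (SE; 0.15 without saline rat 1F106), Gusb by 0.23 ± 0.10, Atp6ap1 of the proton pump by 0.12 ± 0.07 and Mcoln1 by -0.28 ± 0.13. Ctsd in that group averaged 2181 ± 658 (SD, n = 6), but rat 3M24 alone read 3500 and the median was 1977. Tubular injury markers were higher in 8 of 8 with cisplatin at day 5 (median 0.88).

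With cadmium at day 1, Lgmn had 3382 ± 613 (SD, n = 6) against 2772 ± 564 (n = 7), a log2 difference of 0.27 ± 0.12 (SE), and Neu1 differed by 0.26 ± 0.15, both higher in every treated rat. Mcoln1 differed by 0.22 ± 0.09 (SE) and Ctsz by 0.23 ± 0.09, and adjusted p of these 4 were between 0.786 and 0.890 (limma). Naive rats lay above the cadmium mean in Lgmn (3520 ± 484, SD, n = 6) and in Neu1 (363 ± 107). At day 5 with cadmium, Arsb alone kept 1 sign in every rat, at 429.7 ± 74.5 (SD, n = 6) against 568.2 ± 102.8 (n = 5), a log2 difference of -0.36 ± 0.12 (SE; adjusted p = 1.0, limma). Arsb, which removes sulfate from dermatan and chondroitin chains, was also lower in every rat with valproic acid at day 5 (-0.30 ± 0.11, SE), as it was with tobramycin; the 3 groups share the 5 saline rats. Lipa was the other member lower in every valproic acid rat of day 5 (-0.13 ± 0.12, SE), but at -0.01 without saline rat 1F106. At day 1 with valproic acid only Gusb kept 1 sign, at 0.17 ± 0.09 (SE).

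Doxorubicin at day 5 gave the lowest median of the 12 comparisons, with 29 of 39 members below saline. The largest differences were those of Ctsa (-0.53 ± 0.20, SE), Ctsk (-0.41 ± 0.24), Hexa (-0.35 ± 0.17), Ctsz (-0.35 ± 0.14) and Tpp1 (-0.34 ± 0.18). Hexa encodes the alpha chain of beta-hexosaminidase and Tpp1 a tripeptidyl peptidase. Hexa read 1647 ± 334 (SD, n = 5) against 2039 ± 815 (n = 5), where 1 saline rat, 1F106, read 3481. Without that rat the Hexa difference was -0.13 and the Tpp1 difference also -0.13. In Ctsz the 5 doxorubicin rats read 41.9, 53.8, 55.6, 62.8 and 80.6 against 64.1 to 87.1 in saline, so the groups overlapped. Adjusted p of these 5 members were between 0.458 and 0.686 (limma). Macrophage markers were lower in 12 of 13 in these rats (median -0.55), 1 of them passing the test, with summed signals of 2673 to 6431 against 4896 to 8062 in saline, and their part in the Ctsz value was not tested. Gusb and Galc were higher in every rat (0.16 ± 0.11 and 0.10 ± 0.09, SE). At day 1 with doxorubicin, Cln3, a membrane protein lost in juvenile neuronal ceroid lipofuscinosis, had 146.8 ± 30.7 (SD, n = 6) against 99.0 ± 11.5 (n = 7), a log2 difference of 0.47 ± 0.12 (SE) with an adjusted p of 0.302 (limma). It passed when rat 6F147 was left out. Naive rats read 146.4 ± 34.8 (SD, n = 6), however, and against them the Cln3 difference was 0.01. Neu1 was higher in every rat (0.26 ± 0.15, SE), and Ctsa, the mannosidase Man2b1 and Atp6ap1 lower in every rat (-0.20 ± 0.17, -0.12 ± 0.11 and -0.05 ± 0.05). In Neu1 the naive rats had the highest mean of the 15 groups (363 ± 107, SD, n = 6). Against naive rats in place of saline, 5 of 39 members passed as lower with doxorubicin at day 1, where 2.13% of all genes passed. They were Ctsa (-0.63 on the log2 scale), Ctsb (-0.42), Ctsh (-0.40), Lgmn (-0.48) and Man2b1 (-0.25). Saline rats of day 1 also lay below naive rats in Ctsa, Ctsb, Ctsh and Lgmn, by amounts given below. Those members also varied together within groups.

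One test per gene over all 15 groups (limma moderated F test) called 2 members, Ctsz (adjusted p = 0.0112) and Lipa (0.0412), where 4.46% of all genes passed. At an unadjusted p under 0.05 there were 6 members, against 17.4% of all genes. Ctsz group means ran from 58.9 ± 14.3 (SD, n = 5) with doxorubicin at day 5 to 104.6 ± 34.3 (SD, n = 6) with tobramycin at day 5, and its call held without any 1 of the 89 rats (adjusted p 0.000638 to 0.0324) and in 11 of 12 other settings, the exception being values without array scaling (0.172). Lipa, or lysosomal acid lipase, lies on chr1:241437524-241470936. Its means ran from 625.2 ± 158.3 (SD, n = 5) with doxorubicin at day 5 and 634 ± 63.0 (SD, n = 6) with valproic acid at day 5 to 781 ± 65.9 (SD, n = 6) with gentamycin at day 5. Valproic acid rats of day 5 read 558 to 703 and gentamycin rats of day 5 read 664 to 846, and these groups overlapped. Lipa lost its call without any 1 of 23 rats (adjusted p 0.0507 to 0.0867): 2M10, 3M19, 6F146, 6F151, 7M58, 2F110, 5M42, 2M11, 2F115, 7F158, 6M49, 2M13, 2M14, 6M46, 6M50, 7M60, 3F121, 3F120, 8F183, 8F181, 8M82, 8F182 and 2F114. Without the sex term its adjusted p was 0.310, and with a proximal tubule marker score as a covariate 0.0546.

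Ctsd came next in that test (adjusted p = 0.0806) and passed without any 1 of 4 rats, 6F150, 3M24, 6M49 or 4M33 (lowest adjusted p 0.0136). Galc followed at 0.131, with group means from 346 ± 40.5 (SD, n = 6) with gentamycin at day 5 to 413 ± 33.02 (SD, n = 5) with doxorubicin at day 5. The palmitoyl thioesterase Ppt1 (0.212) ran from 413 ± 74.6 (SD, n = 5) with doxorubicin to 490.1 ± 56.6 (SD, n = 6) with valproic acid, both at day 5. Gusb (0.257) ran from 191 with saline at day 1 to 234 with cisplatin at day 5, and Ctsc (0.293), the dipeptidyl peptidase that activates granule proteases, from 964 with valproic acid to 1107 with tobramycin, both at day 1. Lgmn (0.379) and Ctsb (0.384) were lowest with doxorubicin at day 1, at 2513 ± 268 and 3282 ± 406 (SD, n = 6), and highest with cisplatin at day 1, at 3537 ± 685 and 4474 ± 520.5 (SD, n = 6). The sterol carrier Npc2 (0.467) ran from 1112 ± 108 (SD, n = 6) in naive rats to 1354 ± 191 (SD, n = 6) with valproic acid at day 1. Across the 39 members group accounted for a median of 14.7% of the variance of the log2 values and sex for 8.29%, beside 14.9% and 10.1% over all genes. These shares were not corrected for the number of groups. By chance alone 15 groups take up more variance than sex does, so the shares of group and sex cannot be compared with each other.

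The other members had these ranges of group means, of which those of Ctsa, Naglu and Cln3 spanned ratios of highest to lowest of 1.58, 1.53 and 1.48. Among the proteases, Ctsa ran from 2452 to 3876 and Ctsh from 4083 to 5552, both lowest with doxorubicin and highest with cisplatin at day 1. Ctsl, or cathepsin L, ran from 5527 with saline at day 5 (3 males, 2 females) to 6138 with doxorubicin at day 5 (2 males, 3 females), and within sex from 4168 to 5306 in males and from 6401 to 7429.9 in females. Ctsk, a collagen-degrading cathepsin of bone, ran from 56.7 to 77.6, and Tpp1 from 936 to 1199. Ctsk exceeded the limit on low values in 87 of 89 rats, and every other member in all 89. Among the glycosidases and sulfatases, Hexa ran from 1647 to 2039, Gaa, the acid glucosidase that degrades glycogen, from 478 to 567, and the beta-galactosidase Glb1 from 1363 to 1625. Naglu, which trims heparan sulfate, ran from 119.7 to 183.2, Man2b1 from 886 to 1073, Neu1 from 286 to 363 and Gla from 278 to 307. The arylsulfatases Arsa and Arsb ran from 513 to 647 and from 429.7 to 605. Naglu had its highest mean with cadmium at day 5, where the SD was 99.7.

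Among the lipid-handling members, the ceramidase Asah1 ran from 624.7 to 691, Psap from 1675 to 1988 and the sphingomyelinase Smpd1 from 848 to 933. Of the membrane proteins, Lamp1 ran from 2823 to 3382, Lamp2 from 3106 to 3498, the tetraspanin Cd63 from 4437 to 5064 and Laptm4a from 2216 to 2572. Scarb2, the receptor that carries glucocerebrosidase to lysosomes, ran from 88.7 to 109.97, Cln3 from 99.0 to 146.8 and Mcoln1 from 449 to 559. Of the 3 proton pump members, Atp6ap1 ran from 1342 to 1509, Atp6v0d1 from 2431 to 2758 and Atp6v1h from 833 to 937, a ratio of 1.13 between the highest and lowest group in each. Of the regulators, Tfeb ran from 235 to 299.9 and Grn from 1320.5 to 1459.

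Males and females differed in 7 members, no larger a share than among all genes. Among the 18 control rats, 9 of each sex, 7 of 39 members were lower in males and 0 were higher (limma, adjusted over all genes), where 23.6% of all genes passed, 13.8% lower and 9.82% higher in males. By role, the 7 were 1 of 10 proteases, 3 of 11 glycosidases, 2 of 6 lipid-handling proteins and 1 of 2 regulators, and 0 of 7 membrane proteins and 0 of 3 pump subunits. Ctsl, the cysteine protease cathepsin L on chr17:770104-776266, was the clearest. Its signal ran from 4190.5 through a median of 4729 to 5177 in males and from 6237 through 6902 to 7205 in females. The sexes did not overlap, which held for 4.75% of all genes. The difference was -0.53 ± 0.05 (SE) on the log2 scale, with an adjusted p of 1.42e-07 (limma). The second Ctsl probe set gave -1.15 in the same rats.

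Gaa was lower in males by 0.41 ± 0.11 (SE) on the log2 scale (458 ± 83.6 against 606 ± 112.04, SD, n = 9 each; adjusted p = 0.0110, limma). Glb1 was lower by 0.38 ± 0.11 (SE; 1339 ± 259 against 1720.3 ± 252; adjusted p = 0.0178), and Grn by 0.31 ± 0.08 (1231 ± 115.3 against 1522 ± 226; 0.00540). Asah1 was lower by 0.28 ± 0.07 (SE; 609 ± 44.2 against 744 ± 82.2; adjusted p = 0.00770), Ppt1 by 0.24 ± 0.06 (417 ± 34.5 against 495 ± 30.8; 0.00756) and Galc by 0.21 ± 0.07 (353 ± 28.8 against 411 ± 37.8; 0.0262). In these 6 members the sexes overlapped among the control rats. The second Asah1 probe set gave only -0.10 in the same rats, and over all rats it correlated with the one used at r = 0.474. The second Gaa probe set gave -0.42. Gaa, Glb1 and Galc missed the limit without the 5 arrays of doubtful treatment text (adjusted p 0.0677, 0.0650 and 0.0633). Galc missed the limit without rat 8F183, 8M83 or 8F182 (adjusted p up to 0.0554). Gusb and Mcoln1 pointed the other way, higher in males by 0.20 ± 0.07 and 0.21 ± 0.08 (SE), with adjusted p of 0.0516 and 0.0554 (limma). Each passed without any 1 of 4 rats: Gusb without 1F104, 1M3, 1M5 or 8M82 (lowest adjusted p 0.0180), and Mcoln1 without 1M5, 1M6, 1F106 or 8F182 (lowest 0.0267).

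**Figure D3:**
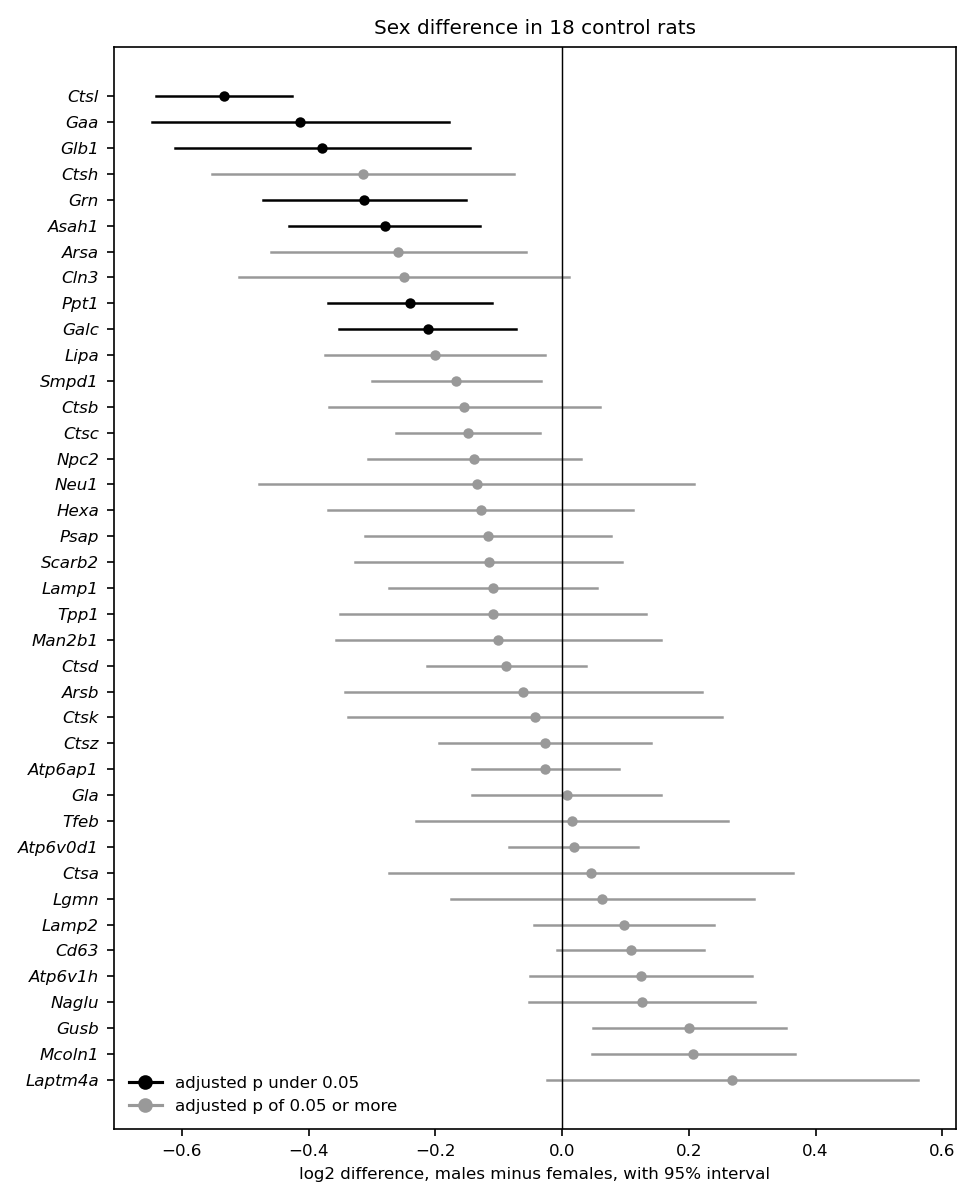
Log2 difference, males minus females, of 39 members in 18 control rats, with 95% intervals; black marks adjusted p under 0.05 and grey the rest. The 7 black members, from Ctsl at -0.53 to Galc at -0.21, all lie left of 0.

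The control rats make up 3 of the 15 groups, and the other 12 were not used in that test. Ctsl was lower in males in 15 of 15 groups, and the sexes did not overlap in any of the 15. Grn and Ppt1 were lower in males in 15 of 15 groups, without overlap in 12 and 10 of them, and Gaa in 15 of 15, without overlap in 6. Gusb and Mcoln1 were higher in males in 15 of 15 groups, without overlap in 9 and 5. Over all 89 rats 24 of 39 members passed (64.3% of all genes), among them the 7 named. Sex accounted for 85.6% of the variance of Ctsl, 52.2% of that of Grn, 47.4% of that of Ppt1 and 38.5% of that of Gusb. The mean Ctsl signal of the 44 males was 4646 ± 436 (SD), and that of the 45 females 6816 ± 436 (SD).

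**Figure D4:**
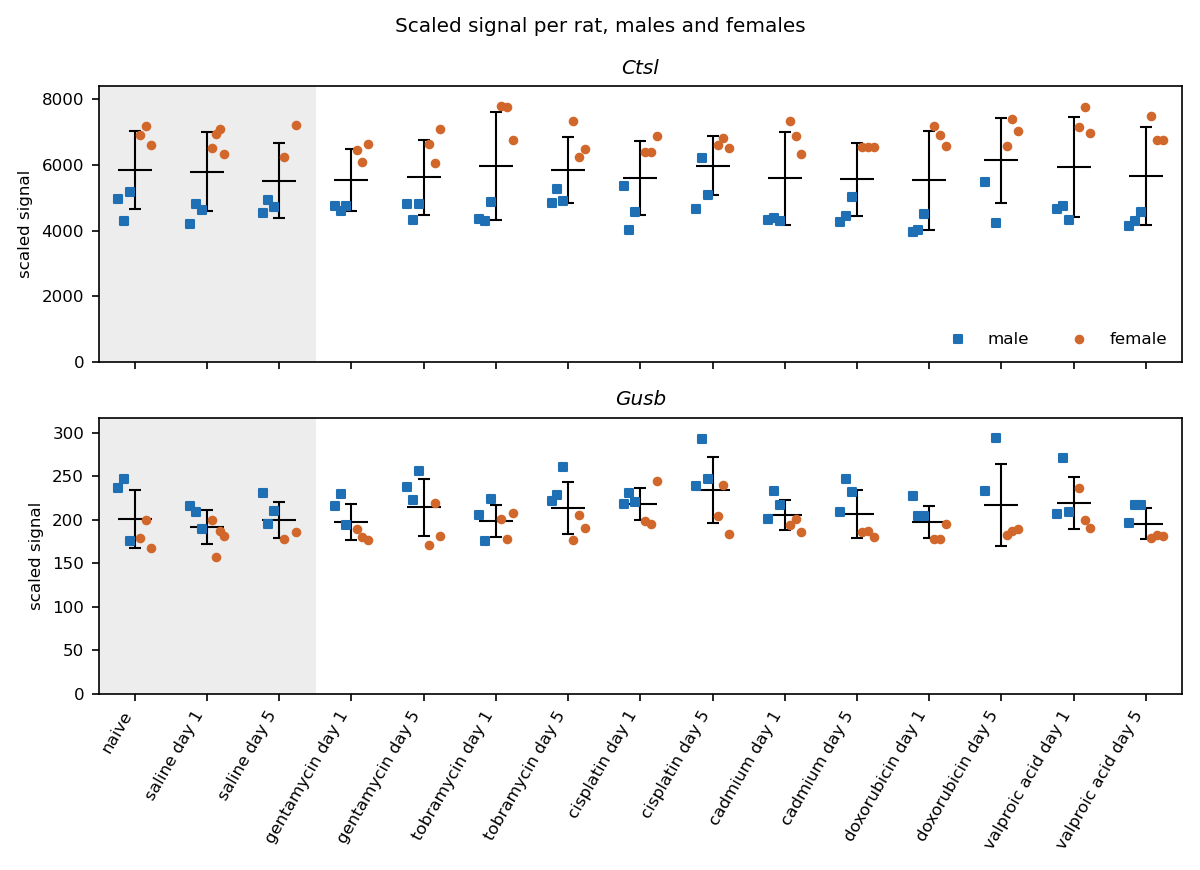
Scaled signal per rat of Ctsl and Gusb in the 15 groups; squares are males, circles females, black bars the mean and SD over both sexes of a group, and grey shading marks controls. In Ctsl every male lies below every female of its group in 15 of 15 groups, while Gusb has the higher mean in males in 15 of 15.

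Cell type markers moved with sex as well. In control rats, proximal tubule markers were higher in males in 8 of 12, 5 of them passing, with summed signals of 45520 to 56344 in males and 38815 to 55018 in females. Macrophage markers were higher in males in 2 of 13, with sums of 4896 to 7006 against 6272 to 8062, and collecting duct markers in 0 of 7, 5 of them passing as lower. With the proximal tubule score as a covariate, 12 members passed, including all 7, and with the Gapdh ratio as a covariate 11 passed, again including all 7. The part of the other markers was not tested. Without scaling of the arrays no member passed; all 7 kept their sign, with Ctsl at -0.38.

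Within groups, a few proteases varied together. After removal of group and sex means, the log2 values of Ctsa and Ctsb correlated at r = 0.924 over 89 rats, Ctsa and Ctsh at 0.901, Ctsb and Ctsh at 0.886, Ctsb and Lgmn at 0.841, and Ctsa and Lgmn at 0.836. These values come from the same arrays and are descriptions. The median over all 741 pairs of members was 0.08, beside 0.01 over all pairs of genes tested, and other proteases did not follow these 4: Ctsa with Ctsz was at -0.05 and Ctsa with Ctsl at 0.02. The same rats ranked alike in the proximal tubule markers. Ctsa correlated with the proximal tubule score, the mean of 12 markers, at Pearson's r = 0.938 and Spearman's rho = 0.943 (within-group permutation p = 1e-05 for each, the smallest that 100000 permutations can give; adjusted p = 9.75e-05 and 8.67e-05 over all relations of 39 members with 4 measures). Without the 2 rats farthest from the median score r was 0.937.

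Ctsb (r = 0.899), Ctsh (0.891), Glb1 (0.801), Lgmn (0.766) and Tpp1 (0.681) followed, and 12 of 39 members reached r of 0.5 or more with that score, as did 5.11% of all genes other than its markers. Without the 2 farthest rats these 5 lay between 0.708 and 0.890. Ctsz correlated with the macrophage score (r = 0.690, rho = 0.548, permutation p = 1e-05 for both; 0.577 without rats 6M50 and 7M60). Rat 7M60, with valproic acid at day 5, had the highest macrophage sum of all (13572) and a Ctsz signal of 163. Ctsd correlated with the tubular injury score at r = 0.710 and rho = 0.498 (permutation p = 0.00119 and 0.0138, adjusted 0.00530 and 0.0407). Without rats 3M24 and 6M49, r was 0.391, so that relation rested in large part on these 2 rats, whose Ctsd signals were 3500 and 3728.

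Members also followed the Gapdh 3′ to 5′ ratio, in both directions, about as often as genes in general. Laptm4a, a small membrane protein of late endosomes, correlated at r = -0.906 and rho = -0.822 (permutation p = 1e-05 for both; -0.828 without rats 1F106 and 5F140). Hexa correlated at 0.785 (rho 0.620), Atp6v1h at -0.765 (rho -0.628), Npc2 at 0.699 (rho 0.604) and Arsa at 0.599 (rho 0.473), and 10 of 39 members exceeded 0.5 in size, beside 23.01% of all genes. Without rats 1F106 and 5F140 it was 6 of 39, beside 14.8%, and Hexa, Atp6v1h, Npc2 and Arsa were at 0.627, -0.627, 0.570 and 0.492. Rat 1F106, a saline female of day 5, had the highest ratio (1.58), the lowest Laptm4a signal (970.2) and the highest Hexa signal (3481). Since that rat is 1 of 5 in the saline group of day 5, all comparisons of day 5 use it. With it, Laptm4a was higher than saline with all 6 compounds (0.12 to 0.34 on the log2 scale) and Hexa lower with all 6 (-0.35 to -0.07). Without it, Laptm4a lay between -0.11 and 0.06 and Hexa between -0.13 and 0.14, and the sign turned in 5 of 6 comparisons for each. Scan date or any other batch is not given in the sources used here, so no value within a batch is given.

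**Figure D5:**
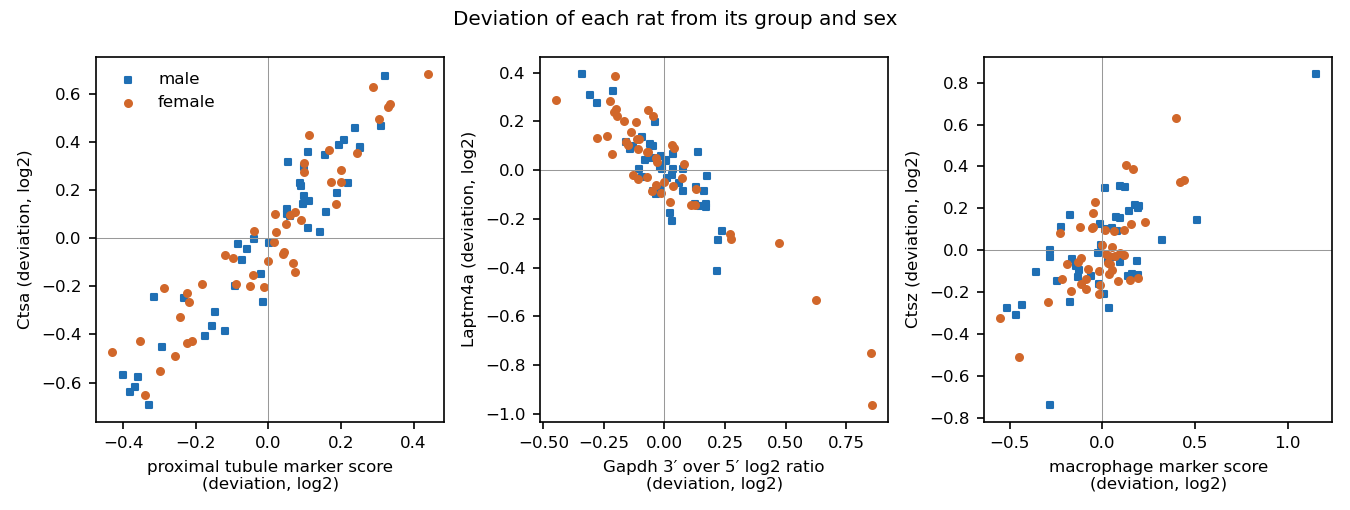
Deviation of each of 89 rats from its group and sex means, on the log2 scale: Ctsa against the proximal tubule score, Laptm4a against the Gapdh 3′ over 5′ ratio, and Ctsz against the macrophage score; squares are males and circles females. Ctsa rises with the score (r = 0.938), Laptm4a falls with the ratio (r = -0.906) with 2 females at the far right, and Ctsz (r = 0.690) has 1 male at the far right.

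Other genes of the lysosome, of its proton pump and of autophagy were read from 3 further lists, 37 of 44, 16 of 16 and 17 of 20 genes of which were tested. In the 12 compound comparisons 1 of these genes passed: Ctss, or cathepsin S, the protease that processes the invariant chain in antigen-presenting cells, fell with doxorubicin at day 5, from 591 ± 55.4 to 354 ± 38.8 (SD, n = 5 each; log2 difference -0.74 ± 0.10, SE; adjusted p = 0.0146, limma). Cd74, the invariant chain itself and 1 of the macrophage markers, was also lower there (-1.01, adjusted p = 0.0459). Over the 15 groups, Ctss (adjusted p = 0.0121), Cd68, a macrophage glycoprotein of late endosomes (0.0288), and the autophagy gene Uvrag (0.0225) passed the F test.

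With tobramycin at day 1, Cd68 had 111.1 ± 18.9 (SD, n = 6) against 66.4 ± 15.7 (n = 7), a log2 difference of 0.65 ± 0.13 (SE; adjusted p = 0.0761, limma), and Ctss differed by 0.32 ± 0.09 and Uvrag by -0.20 ± 0.07. With gentamycin at day 1 the 3 smallest p belonged to Rragd, a GTPase that signals nutrients at the lysosome (0.34 ± 0.08, SE), the pump subunit Atp6v0a4 (-0.11 ± 0.05) and the autophagy protein Atg9a (-0.14 ± 0.06). With gentamycin at day 5 they belonged to Gpnmb (0.39 ± 0.16), Gnptg (-0.18 ± 0.09) and Gabarapl1 (-0.15 ± 0.07). With tobramycin at day 5, Rragd differed by -0.34 ± 0.12 (SE), Cpq by -0.29 ± 0.11 and Becn1 by 0.23 ± 0.10. The adjusted p of the 11 values other than that of Cd68 were between 0.225 and 0.997 (limma). Rragd thus pointed up with gentamycin at day 1 and down with tobramycin at day 5, 2 differences that share no rat.

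In control rats 10 of the 37 further lysosomal genes were lower and 1 was higher in males, where 23.6% of all genes passed. The 1 higher gene was Igf2r, the cation-independent mannose 6-phosphate receptor that sorts hydrolases to lysosomes, at 2445 ± 555 in males and 1328 ± 437 in females (SD, n = 9 each; log2 difference 0.91 ± 0.17, SE; adjusted p = 0.000651, limma). Manba, beta-mannosidase, was lower in males (715 ± 47.4 against 1033 ± 111.9, SD; log2 difference -0.51 ± 0.06, SE; adjusted p = 6.08e-06). So were Gpnmb (-0.68), Gm2a (-0.60), the activator of beta-hexosaminidase, Sort1 (-0.42), Laptm5 (-0.34), Abca2 (-0.31), Gnptab (-0.30), Laptm4b (-0.28), Acp5 (-0.26) and Idua (-0.20). Of 16 further pump subunits 3 passed: Atp6v1g1 (0.41) and Atp6v1a (0.24) were higher and Atp6v0a4 (-0.18) lower in males. Of 17 autophagy genes 3 passed: Sqstm1 (0.31) and Atg5 (0.21) were higher and the kinase Ulk1 (-0.41) lower.

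Between control groups no member passed. Saline at day 1 differed from naive rats in 5 members at an unadjusted p under 0.05 (8.14% of all genes; 0% passed after adjustment), all of them lower. Cln3 had 99.0 against 146.4 (log2 difference -0.48 ± 0.13, SE; adjusted p = 0.324, limma), and Ctsa (-0.44 ± 0.19), Lgmn (-0.35 ± 0.13), Ctsb (-0.30 ± 0.11) and Ctsh (-0.27 ± 0.13) were the others. Saline at day 5 differed from naive rats in 1 member at that level, Npc2 (5.91% of all genes; 0% passed) and from saline at day 1 in 0 (4.51%; 0% passed). Ctsa, Ctsb, Ctsh and Lgmn, lower in saline rats of day 1 than in naive rats, were also among the 6 members named above for cisplatin at day 1, and both comparisons use the same 7 saline rats.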

How the data were processed

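Kidney RNA of 89 rats was hybridised to 1-colour Affymetrix rat arrays, 1 per rat. The authors deposited MAS5 signal as a linear intensity for 31099 probe sets, per the labels and the submitters' processing notes; the MAS5 version is not given in the sources used here. Each array was scaled to a common 2% trimmed mean (181; 91.5 to 352 before), log2(signal + 16) was taken, and each of 14217 genes was represented by its probe set of highest mean. Genes above a signal of 33.2, the 40th percentile, on at least 5 arrays were tested (11415). Of 54 member probe sets 39 were used. Tests were limma 3.58.1 in R 4.3.3 (lmFit, eBayes with trend and robust) on the groups compared, with sex as a term and Benjamini-Hochberg adjustment. Python 3 scripts computed within-group permutations. Some limma comparisons and the F test were tried on simulated data with independent noise, and the other methods were not. Groups came from titles, and replicates are single rats; precision is limited by their number.

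Genes named in full were members passing a test or among the 10 smallest F test p, the 2 largest rises and falls of 1 sign in every treated rat per comparison, and, from further lists, passing genes and the 3 smallest p per aminoglycoside comparison. Cadmium Ctsz and Mcoln1, cisplatin Lgmn, Ctsh and Lamp1, doxorubicin Ctsa, Ctsz and Cln3, and the other pairs and relations were named after their values were seen. The members and lists were chosen with earlier results of these data known. Alternatives were other pseudocounts, normalization, filters, probe sets, covariates, controls, fits and rats left out. Gene symbols came from the platform annotation, positions and promoters from RefSeq (GRCr8).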

Additional observations from a re-analysis of the deposited data

Results flagged for a closer look

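In groups of 4 to 10 rats, the highest or lowest rat was compared with its nearest neighbour by Dixon's test for the members described in full and their mean score in 15 groups, and 21 of 360 checks (5.83%) stood apart, where chance gives about 1 in 20. Values are scaled signals, given with the next rat of the group. Ctsd held 3 of them: 3500 in rat 3M24 with cisplatin at day 5 (next 2067), 3728 in rat 6M49 with doxorubicin at day 5 (next 2027), and a low 1490.0 in rat 6F147 with doxorubicin at day 1 (next 1796). In rats 3M24 and 6M49 the tubular injury markers were also high, and their part in Ctsd was not tested.

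Ctsb stood apart in rat 4M33 with tobramycin at day 5 (5058, next 3789), in rat 6F147 with doxorubicin at day 1 (4069, next 3369) and, low, in rat 7F158 with valproic acid at day 5 (3211, next 4081). Hexa did so in 3 of the 4 rats with a high Gapdh 3′ to 5′ ratio: 1F106 with saline at day 5 (3481, next 1855), 5F140 with cadmium at day 5 (3272, next 1847) and 7F155 with valproic acid at day 1 (2774, next 1937). Npc2 was also high in 5F140 (1835, next 1296), and the part of the ratio was not tested.

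Ctsz was high in rat 7M60 with valproic acid at day 5 (162.7, next 98.99), which had the highest summed macrophage markers of all rats. Mcoln1 was high in rat 2M10 with gentamycin at day 1 (598.5, next 479.5) and in rat 4M28 with tobramycin at day 1 (666.0, next 512.3), where Neu1 was low in rat 4M30 (272.3, next 345.9). Asah1 was high in rat 1F105 with saline at day 5 (806.2, next 654.4) and low in rat 6F149 with doxorubicin at day 5 (509.6, next 666.3). With saline at day 1, Lipa was high in rat 1F103 (843.8, next 738.4) and Ctsc low in rat 1M3 (921.3, next 1039). The other 3 were Ppt1 in rat 3F122 with cisplatin at day 5 (530.6, next 451.0), Galc in rat 3F120 with cisplatin at day 1 (435.8, next 378.1) and a low Glb1 in rat 5M42 with cadmium at day 5 (1117, next 1370.0).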

How the results depend on the processing

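Of the counts of members passing, 325 of 338 under other settings stayed within 1.5 times the reported count; in the compound comparisons 173 of 175 stayed at 0, and with 1 rat left out all did so apart from 2 given here. With saline and naive rats pooled as control, tobramycin at day 1 gave 2 members, and with naive rats as control doxorubicin at day 1 gave 5. Without 1 rat, tobramycin at day 1 gave 0 to 2 members (2 without 4M28) and doxorubicin at day 1 gave 0 to 1 (1 without 6F147). Between males and females 7 became 12 with quantile normalization, 0 without scaling, 11 with the Gapdh ratio as a covariate, 4 without the 5 arrays of doubtful treatment text, 24 in the fit on all arrays and 12 with the proximal tubule score as a covariate, and 6 to 10 without 1 rat. Over the 15 groups 2 became 0 without scaling and 1 with every probe set tested, without the 5 arrays, without the sex term and with the proximal tubule score, and 1 to 3 without 1 rat. Ctsz with gentamycin at day 1 turned from 0.15 to -0.00685 (log2) with naive rats as control. The causes were not tested. The proximal tubule covariate, the omission of arrays with a high Gapdh ratio and the member values without rat 1F106 were chosen after seeing the data. No paired analysis was possible because each animal code belongs to 1 rat and links no rats across groups. The signal gives no read depth, so dim probe sets such as those of Ctsk and Ctsz are limited by their brightness.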
